A study of Homo sapiens with 6 samples.

Results

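The nuclear-encoded subunits of respiratory complexes II to V, together with the electron carrier cytochrome c, were followed in U251 cells after knockdown of TEAD3. The set was chosen by function from a list of gene names and held 40 of the 60612 genes in the count table: 4 of complex II, 9 of complex III, 11 of complex IV, 15 of complex V (ATP synthase) and CYCS. All 40 were matched by symbol, older ATP synthase names included, and all 40 passed the filter on low counts, which 17723 genes passed in all.

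U251 is an established human glioma line, and polyadenylated RNA was sequenced from 3 libraries labelled TEAD3 knockdown and 3 labelled normal control. Per the labels' protocols, the knockdown was by transient transfection; a plasmid vector and an siRNA are both named, and what the controls received is not given in the labels. TEAD3 encodes a DNA-binding partner of the Hippo pathway coactivators YAP1 and TAZ, and the comparison asks which transcripts differ when its own transcript is reduced. Nothing in the labels states that replicates were grown as separate cultures, so p-values cover only variation among these 6 libraries, and that variation may be technical. In bulk RNA, fewer cells of a kind and less RNA per cell cannot be told apart.

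Total counts were between 63145768 and 64808615 in knockdown libraries and between 58344026 and 63685272 in controls. TEAD3, on chromosome 6, had 4.70, 8.35 and 6.08 CPM (counts scaled to library size by the TMM method) in knockdown replicates 1 to 3, against 14.9, 20.3 and 21.0 CPM in control replicates 1 to 3. It fell by 1.55 on the log2 scale (SE 0.218, edgeR adjusted p = 0.0114), and the groups did not overlap. Its adjusted p was 0.0532 without knockdown replicate 1, 0.0938 without knockdown replicate 3 and 0.0541 without control replicate 3. Across all genes, edgeR's quasi-likelihood test called 80 higher and 36 lower at an adjusted p under 0.05. With single libraries left out the counts ranged widely, the extremes being 259 higher and 330 lower without control replicate 2 and 15 higher and 5 lower without knockdown replicate 3. Control replicate 2 stood apart by GC content: over protein-coding genes, the deviation of a library from the gene mean had a Spearman's rho with GC content of 0.561 there, against -0.459 and -0.184 in control replicates 1 and 3, and of -0.089, 0.147 and 0.023 in knockdown replicates 1 to 3. VIM, NES, CD44 and SOX9, markers of glial and glioma cells, were all present, with VIM at 3679 CPM in knockdown and 4484 CPM in control libraries. The astrocyte markers were low, GFAP at 0.572 CPM in knockdown and 1.46 CPM in control libraries and S100B at 0.197 CPM in knockdown and 0.374 CPM in control libraries. The leukocyte marker PTPRC, the endothelial marker PECAM1 and the neuronal marker RBFOX3 were too low to be tested, and the epithelial marker EPCAM had 1.03 CPM in knockdown and 0.810 CPM in control libraries.

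Complexes II, III and IV pass electrons in the inner mitochondrial membrane: complex II (succinate dehydrogenase) feeds electrons from succinate to ubiquinone, complex III passes them from ubiquinol to cytochrome c, and complex IV (cytochrome c oxidase) hands them to oxygen. Complexes III and IV pump protons as they do so, and ATP synthase lets the protons back through a rotating ring of c subunits to make ATP. Except in complex II, the nuclear-encoded subunits join partners encoded in the mitochondrial genome. Many of their promoters are known to be bound by the nuclear respiratory factors NRF1 and GABP, and by YY1.

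None of the 40 genes passed the edgeR test, but most fold changes lay on the higher side in the knockdown. The lowest adjusted p was 0.138, for ATP5ME, against 0.451% of all tested genes called higher, 0.203% called lower and 0.655% called in either direction. The fitted fold change was above 0 for 36 genes and below 0 for 4, where 49.8% of all tested genes were above 0. The median log2 fold change was 0.25 over the 40 genes and -0.0012 over all tested genes. At an unadjusted p under 0.05, 15 of the 40 lay on the higher side and 0 on the lower, which is 37.5% of them against 8.15% of all tested genes higher and 7.43% lower. Every knockdown library lay above every control for 15 genes and below every control for 0, against 11.0% and 10.6% of all tested genes; the groups overlapped for the other 25.

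DESeq2 called 4 of the 40 higher and 0 lower, against 2.75% of all tested genes higher and 2.17% lower. These were ATP5ME (DESeq2 adjusted p = 0.0123), NDUFA4 (DESeq2 adjusted p = 0.0205), UQCRQ (DESeq2 adjusted p = 0.0400) and UQCR10 (DESeq2 adjusted p = 0.0471). By limma-voom the number called was 0, against 0.446% of all tested genes called higher and 0.231% lower; at its unadjusted p under 0.05 the higher genes numbered 14, against 8.59% of all. Knockdown replicate 1 held the highest level for 34 of the 40 genes, against 3349 of all 17723 tested genes. Without it the median was 0.13, with 32 genes above 0 (49.7% of all genes in that fit were), and 2 genes were higher at an unadjusted p under 0.05, against 4.97% of all. Without control replicate 1 that count was 8, against 7.27% of all, and without control replicate 3 it was 4, against 5.88%.

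**Figure D1:**
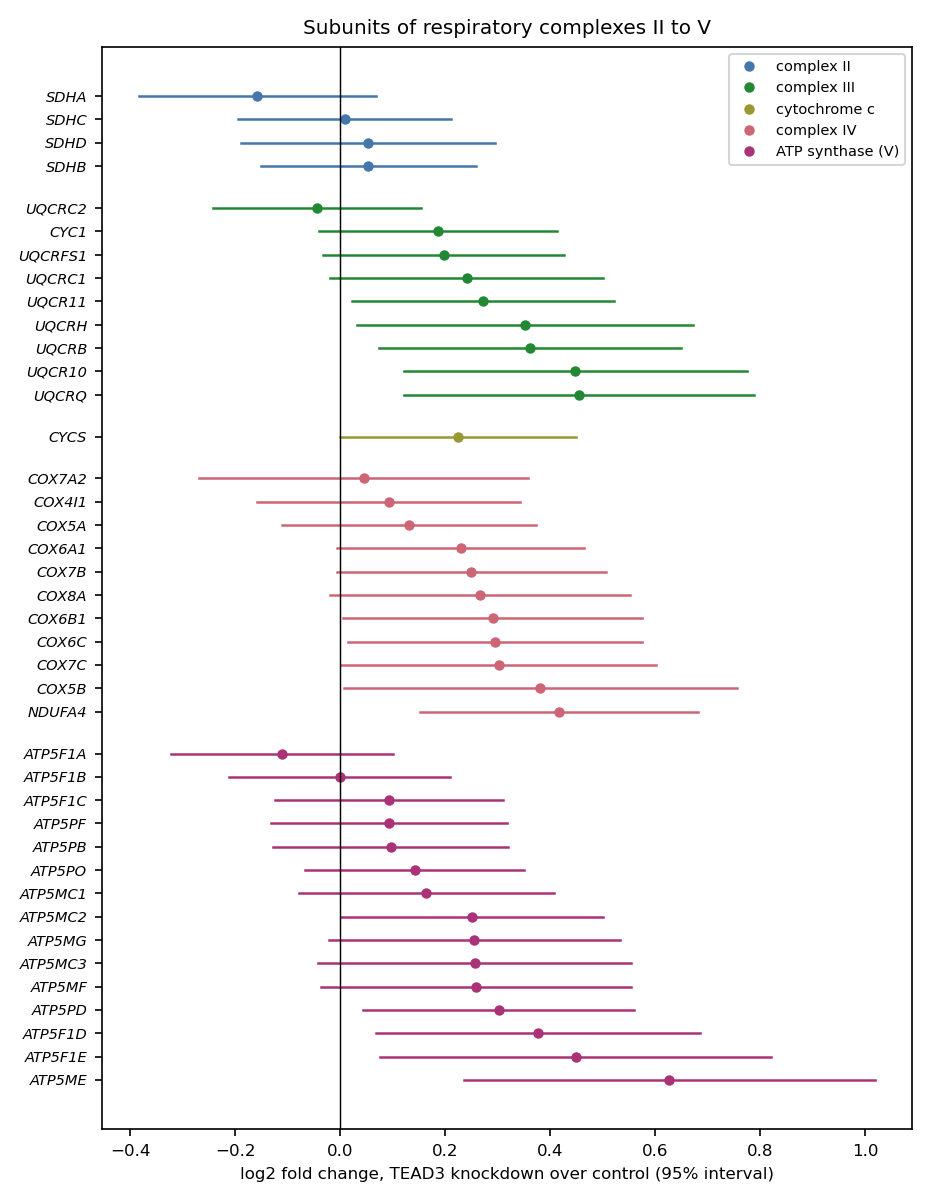
Log2 fold change of each of the 40 genes, TEAD3 knockdown over control, by complex; points are edgeR estimates from 3 libraries a group and lines are 95% intervals. Points lie right of 0 for 36 genes; the 4 to its left are SDHA, UQCRC2, ATP5F1A and ATP5F1B.

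Promoter sequence was available for 31 of the 40 genes in the RefSeq table (GRCh38.p14, from 250 bases before to 50 after a start site). Of the 4 genes that DESeq2 called, 3 had an entry, and their windows are shown because these genes were among those with the largest fold changes. Capitals mark matches on either strand to the NRF1 motif (GCGC, then A and any base, then GCGC), the ETS motif CCGGAAG bound by GABP, and the YY1 motif AANATGGCG. ATP5ME lies on the minus strand at chr4:674227-674526, UQCR10 on the plus strand at chr22:29767119-29767418 and UQCRQ on the plus strand at chr5:132866392-132866691.
ATP5ME: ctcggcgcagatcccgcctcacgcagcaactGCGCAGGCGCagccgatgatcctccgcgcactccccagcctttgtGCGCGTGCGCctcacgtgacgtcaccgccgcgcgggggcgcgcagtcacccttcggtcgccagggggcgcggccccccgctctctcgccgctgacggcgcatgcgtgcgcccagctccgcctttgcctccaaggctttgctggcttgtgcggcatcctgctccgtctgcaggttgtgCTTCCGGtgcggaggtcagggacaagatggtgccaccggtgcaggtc
UQCR10: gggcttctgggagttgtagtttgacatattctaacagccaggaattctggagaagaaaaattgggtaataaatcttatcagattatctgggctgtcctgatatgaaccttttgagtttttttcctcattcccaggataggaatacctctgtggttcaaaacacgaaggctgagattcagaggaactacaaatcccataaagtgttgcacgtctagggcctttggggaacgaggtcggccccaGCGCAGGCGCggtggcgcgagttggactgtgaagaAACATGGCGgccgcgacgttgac
UQCRQ: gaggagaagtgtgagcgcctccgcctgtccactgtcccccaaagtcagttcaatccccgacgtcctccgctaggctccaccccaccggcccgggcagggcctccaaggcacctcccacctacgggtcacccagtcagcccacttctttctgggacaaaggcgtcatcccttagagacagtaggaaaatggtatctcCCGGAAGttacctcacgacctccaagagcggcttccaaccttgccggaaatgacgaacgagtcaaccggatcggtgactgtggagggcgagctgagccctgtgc
The ATP5ME window held 2 NRF1 matches and an ETS match, the UQCR10 window an NRF1 and a YY1 match, and the UQCRQ window an ETS match. A TEAD motif (CATTCC) in the UQCR10 window and a MYC E-box (CACGTG) in the ATP5ME window are left in lower case.

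Across the 31 genes, the ETS motif stood in 15 (48.4%), against 12.2% of 27305 genes with a window and 21.6% of the tested protein-coding genes with one. The NRF1 motif stood in 9 of the 31, against 6.98% and 12.8% of those sets, and the YY1 motif in 6 (19.4%), against 3.85% and 7.71%. At least 1 of these 3 motifs was in 21 of the 31 (67.7%), against 20.0% and 36.2%. The SP1 motif GGGCGG stood in 18 (58.1%, against 48.3% and 75.8%), the TEAD motif CATTCC in 4 (12.9%, against 16.7% and 15.4%) and the MYC E-box CACGTG in 4 (12.9%, against 8.77% and 12.4%). Matches to different motifs overlapped in 1 place. The TEAD motif was in the windows of ATP5F1A, COX5A, UQCR10 and UQCRC1. By motif, the median log2 fold change was 0.27 for the 15 genes with an ETS match and 0.18 for the 16 without, and 0.20 for the 9 with an NRF1 match and 0.24 for the 22 without. For the 4 genes with a TEAD match it was 0.19, and for the 27 without it was 0.23. With and without a YY1 match the median was 0.21 and 0.25. For SP1 the medians with and without a match were 0.21 and 0.25, and for the MYC E-box 0.22 and 0.23. A match is a run of letters and does not show that the factor binds there.

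Complex II, the succinate dehydrogenase, stood nearest to no difference. Its 4 genes had a median of 0.031 on the log2 fold scale. None was under an unadjusted p of 0.05, which 8.15% of all tested genes reached on the higher side and 7.43% on the lower. The fold-change intervals of the 4 genes lay between 0.766 and 1.23. SDHA (ENSG00000073578), the flavoprotein that oxidises succinate, is encoded on chromosome 5 from 218241 to 256700 and had 184, 198 and 187 CPM in knockdown replicates 1 to 3, against 198, 238 and 200 CPM in control replicates 1 to 3. The groups overlapped near 198 CPM, and control replicate 2 stood highest. Its log2 fold change was -0.16 (SE 0.103, edgeR adjusted p = 0.499), and it was the lowest of the 40; without control replicate 2 it was -0.07. SDHB, the iron-sulfur subunit, had 132, 136 and 131 CPM in knockdown libraries, against 131, 119 and 135 CPM in controls (log2 0.05, edgeR adjusted p = 0.846).

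The membrane anchors SDHC and SDHD, which hold the ubiquinone site, also overlapped between groups. SDHC had 139, 129 and 125 CPM in knockdown libraries, against 129, 135 and 128 CPM in controls (log2 0.01, edgeR adjusted p = 0.984). SDHD had 72.9, 58.6 and 62.6 CPM in knockdown libraries, against 62.3, 59.6 and 65.3 CPM in controls (log2 0.05, edgeR adjusted p = 0.876). For SDHD, knockdown replicate 1 was above all others and knockdown replicate 2 below all others. Per kilobase of coding sequence SDHC was the most abundant of the complex, at 259 CPM in knockdown and 257 CPM in control libraries, and SDHA the least, at 95.3 CPM in knockdown and 106 CPM in control libraries. Reads of SDHA may be shared with its copies SDHAP1 and SDHAP4, whose mean counts were 10.6% and 5.96% of its own, so its value is uncertain; adding them left its direction as it was.

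In complex III the small subunits had the largest differences. For its 9 genes the median log2 was 0.27, with 8 above 0, where 49.8% of all tested genes were above 0. At an unadjusted p under 0.05, 5 were higher, against 8.15% of all tested genes. Those 5 were the small subunits UQCRB, UQCRH, UQCRQ, UQCR10 and UQCR11, which surround the catalytic core. UQCRQ (ENSG00000164405), on chromosome 5 from 132866560 to 132868031, had 283, 178 and 197 CPM in knockdown libraries, against 165, 157 and 158 CPM in controls. All knockdown libraries were above all controls, with replicate 1 far above the other two. The log2 fold change was 0.45 (SE 0.152, edgeR adjusted p = 0.190), and 0.23 without knockdown replicate 1. UQCR10 (ENSG00000184076), on chromosome 22 from 29767369 to 29770413, had 111, 77.1 and 80.3 CPM in knockdown libraries, against 61.3, 75.1 and 60.2 CPM in controls (log2 0.45, SE 0.149, edgeR adjusted p = 0.187). Its groups did not overlap, though knockdown replicate 2 and control replicate 2 lay close together, and without knockdown replicate 1 its log2 fold change was 0.27. Exons of GDF9 on the opposite strand cover 20.8% of the UQCRQ exons, and without a stated strand setting reads cannot be assigned with certainty, but GDF9 itself averaged 0.376 CPM in knockdown and 0.139 CPM in control libraries.

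UQCRB, a small subunit at the ubiquinone site encoded on chromosome 8 from 96225920 to 96235634, had 277, 191 and 227 CPM in knockdown libraries, against 177, 170 and 194 CPM in controls (log2 0.36, edgeR adjusted p = 0.222). Knockdown replicate 2 lay just under control replicate 3, so the groups overlapped; without knockdown replicate 1 the log2 fold change was 0.22. The hinge protein UQCRH averaged 208 ± 43.7 CPM in knockdown and 163 ± 17.5 CPM in control libraries (SD, n = 3 each), and UQCR11 averaged 141 ± 20.0 CPM in knockdown and 117 ± 5.10 CPM in control libraries. UQCRHL, a near copy of UQCRH, held 3.21% of the count of UQCRH, so part of that signal could be misassigned.

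The larger subunits of complex III showed smaller differences. Cytochrome c1 (CYC1) averaged 184 ± 8.19 CPM in knockdown and 161 ± 16.6 CPM in control libraries, and the Rieske iron-sulfur protein UQCRFS1 averaged 162 ± 12.6 CPM in knockdown and 141 ± 12.1 CPM in control libraries (SD, n = 3 each). For both, every knockdown library was above every control (CYC1 log2 0.19, UQCRFS1 log2 0.20), as for 11.0% of all tested genes. Of the core proteins, UQCRC1 averaged 350 ± 26.3 CPM in knockdown and 296 ± 43.2 CPM in control libraries (log2 0.24, edgeR adjusted p = 0.359). UQCRC2, on chromosome 16 from 21952660 to 21983660, had 143, 150 and 149 CPM in knockdown libraries, against 160, 147 and 149 CPM in controls (log2 -0.04, edgeR adjusted p = 0.872). It was the least abundant gene of the complex per kilobase of coding sequence, at 109 CPM in knockdown and 112 CPM in control libraries. The most abundant on that scale was UQCRQ in knockdown libraries and UQCR11 in controls: UQCRQ had 890 CPM in knockdown and 650 CPM in control libraries, and UQCR11 had 840 CPM in knockdown and 696 CPM in control libraries.

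CYCS (ENSG00000172115), on chromosome 7 from 25120091 to 25125361, encodes cytochrome c, the mobile carrier between complexes III and IV that also triggers apoptosis when released. It had 223, 180 and 204 CPM in knockdown libraries, against 176, 171 and 173 CPM in controls. The controls lay within a narrow band and all knockdown libraries were above it. The log2 fold change was 0.22 (SE 0.102, edgeR unadjusted p = 0.0502, adjusted p = 0.321).

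In complex IV, the median log2 was 0.27 and all 11 genes had a fold change above 0, against 49.8% of all tested genes. At an unadjusted p under 0.05, 5 were higher, against 8.15% of all tested genes. Knockdown replicate 1 held the highest level in all 11, against 3349 of all 17723 tested genes, and without it the median was 0.13. NDUFA4 (ENSG00000189043), once assigned to complex I and now known as a subunit of cytochrome c oxidase, had the smallest p. Encoded on chromosome 7 from 10931951 to 10940256, it had 322, 234 and 253 CPM in knockdown libraries, against 205, 200 and 201 CPM in controls. The groups did not overlap, the controls differed by a few CPM only, and knockdown replicate 1 was highest. The log2 fold change was 0.42 (SE 0.120, edgeR adjusted p = 0.144), a fold of 1.34 with a 95% interval of 1.11 to 1.60. Without knockdown replicate 1 it was 0.27 (edgeR adjusted p = 0.432).

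COX6C, on chromosome 8 from 99873200 to 99894062, had 158, 111 and 120 CPM in knockdown libraries, against 107, 105 and 105 CPM in controls (log2 0.30, edgeR adjusted p = 0.298). COX5B, a zinc-binding subunit on chromosome 2 from 97646040 to 97648383, had 138, 85.5 and 97.5 CPM in knockdown libraries, against 74.0, 96.6 and 75.6 CPM in controls (log2 0.38, edgeR adjusted p = 0.314). COX7C, on chromosome 5 from 86617904 to 86620962, had 447, 311 and 311 CPM in knockdown libraries, against 286, 292 and 289 CPM in controls (log2 0.30, edgeR adjusted p = 0.320). For COX6C and COX7C the groups did not overlap, but the gap between groups without knockdown replicate 1 was narrow; for COX5B control replicate 2 reached into the knockdown range. Without knockdown replicate 1 the log2 fold change was 0.13 for COX6C, 0.16 for COX5B and 0.11 for COX7C. Per kilobase of coding sequence COX7C was the most abundant of all 40 genes, at 1885 CPM in knockdown and 1529 CPM in control libraries.

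COX6B1, which bridges the monomers of the oxidase dimer, averaged 383 ± 69.0 CPM in knockdown and 314 ± 27.0 CPM in control libraries (SD, n = 3 each; log2 0.29). COX6A1 averaged 280 ± 34.7 CPM in knockdown and 239 ± 10.1 CPM in control libraries, with no overlap (log2 0.23). COX7B and COX8A had log2 fold changes of 0.25 and 0.27, and exons of another protein-coding gene on the same strand cover 34.5% of the COX8A exons. The smallest differences of the complex were those of COX4I1, the largest nuclear-encoded subunit and a site of regulation by ATP (log2 0.09), COX5A (log2 0.13) and COX7A2 (log2 0.04). COX5A, on chromosome 15 from 74919791 to 74938168, had 122, 99.5 and 97.6 CPM in knockdown libraries, against 92.8, 99.3 and 99.5 CPM in controls, so that only knockdown replicate 1 lay apart; without it the log2 fold change was 0.02.

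**Figure D2:**
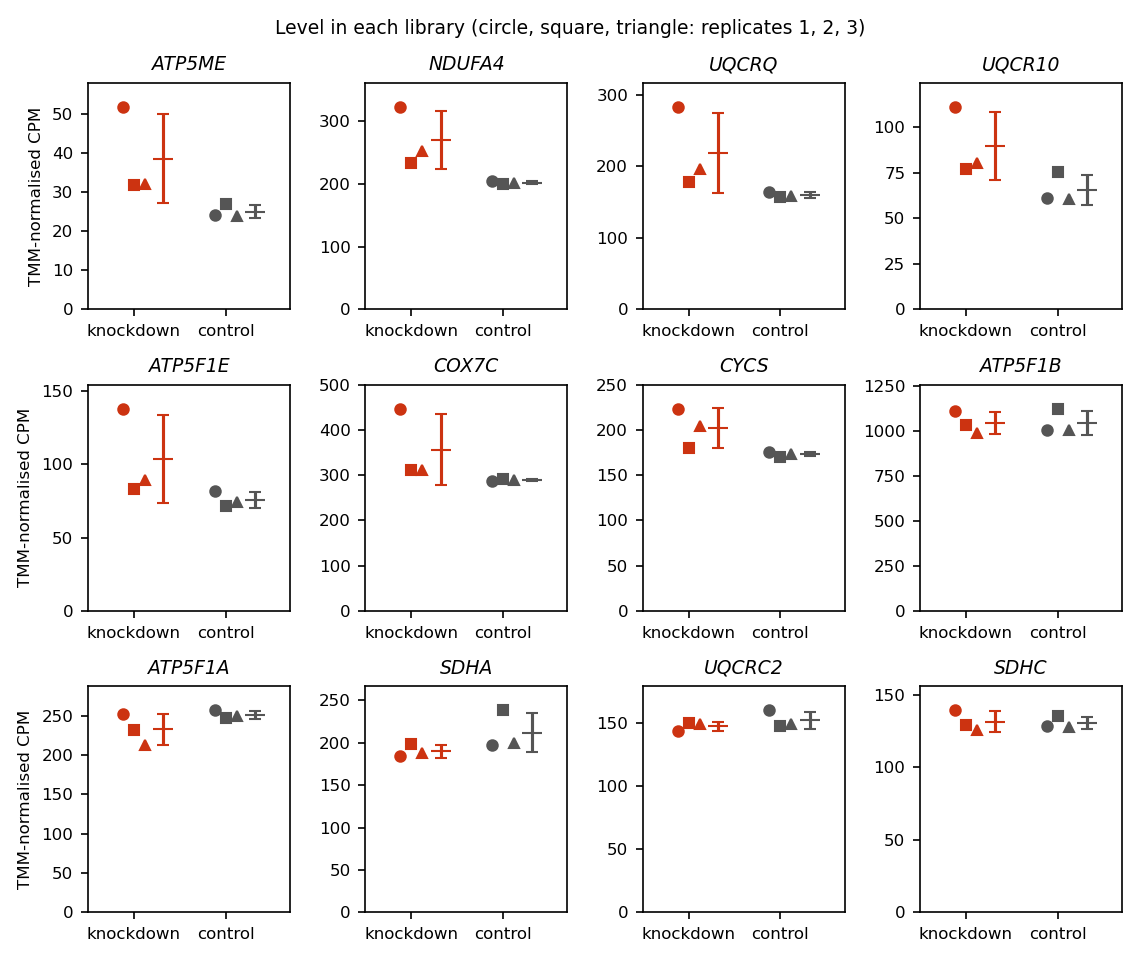
TMM-normalised CPM of 12 genes in each of the 6 libraries, knockdown left of control, with the mean and SD of the 3 libraries of a group beside the points. In the 7 genes from ATP5ME to CYCS the highest point is knockdown replicate 1 (circle), and in ATP5F1B, ATP5F1A, SDHA, UQCRC2 and SDHC the groups overlap.

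ATP synthase gave both the highest fold change of the set and some of the lowest. Of its 15 genes 13 were above 0, against 49.8% of all tested genes, and the median log2 of the 15 was 0.25. At an unadjusted p under 0.05, 5 were higher, against 8.15% of all tested genes. Knockdown replicate 1 was highest in 13 of the 15, against 3349 of all 17723 tested genes, and without it the median was 0.12. The catalytic F1 head differed within itself. ATP5F1B (ENSG00000110955), the catalytic beta subunit on chromosome 12 from 56638175 to 56646068, was the most abundant gene of the set in CPM, with 1108, 1030 and 990 CPM in knockdown libraries, against 1006, 1122 and 1003 CPM in controls. The groups overlapped and the log2 fold change was -0.0013 (SE 0.0955), with a 95% fold interval of 0.864 to 1.16. Its partner alpha subunit ATP5F1A, on chromosome 18 from 46080248 to 46104334, had 253, 232 and 213 CPM in knockdown libraries, against 257, 247 and 250 CPM in controls (log2 -0.11, edgeR adjusted p = 0.638). Knockdown replicate 1 lay within the control range and the other two below it; the log2 fold change was -0.17 without knockdown replicate 1 and -0.05 without knockdown replicate 3.

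The small subunits of the F1 central stalk stood on the other side. ATP5F1D (delta), on chromosome 19 from 1241746 to 1244826, had 78.6, 63.2 and 62.3 CPM in knockdown libraries, against 44.5, 61.8 and 51.0 CPM in controls (log2 0.38, SE 0.141, edgeR adjusted p = 0.237). ATP5F1E (epsilon), on chromosome 20 from 59025467 to 59032382, had 138, 83.3 and 89.5 CPM in knockdown libraries, against 81.9, 71.5 and 74.4 CPM in controls (log2 0.45, SE 0.169, edgeR adjusted p = 0.240). In both genes all knockdown libraries were above all controls, narrowly at the closest pair. Without knockdown replicate 1 the log2 fold change was 0.26 for ATP5F1D and 0.19 for ATP5F1E. The gamma subunit ATP5F1C, the shaft that turns inside the head, had a log2 fold change of 0.09 with overlapping groups. TUBB1 exons on the opposite strand cover 23.2% of the ATP5F1E exons.

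Of the peripheral stalk, which keeps the head from turning, ATP5PD averaged 226 ± 30.0 CPM in knockdown and 183 ± 16.6 CPM in control libraries (SD, n = 3 each; log2 0.30, edgeR adjusted p = 0.252). ATP5PO (OSCP), on chromosome 21 from 33903453 to 33915980, had 82.1, 76.6 and 75.8 CPM in knockdown libraries, against 73.5, 71.7 and 67.4 CPM in controls, with no overlap (log2 0.14, edgeR adjusted p = 0.515). It was the least abundant ATP synthase gene per kilobase of coding sequence over the 6 libraries, at 122 CPM in knockdown and 111 CPM in control libraries. ATP5PB and ATP5PF, the remaining stalk genes, had log2 fold changes of 0.10 and 0.09.

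Subunit c, the proton-carrying ring, is made from 3 genes whose mature proteins are the same and whose import sequences differ. ATP5MC1 had 84.5, 76.9 and 76.2 CPM in knockdown libraries, against 62.6, 79.0 and 70.5 CPM in controls (log2 0.16). ATP5MC2 had 172, 148 and 143 CPM in knockdown libraries, against 116, 144 and 129 CPM in controls (log2 0.25). ATP5MC3 had 316, 223 and 225 CPM in knockdown libraries, against 217, 223 and 200 CPM in controls (log2 0.26). In all 3 the groups overlapped and knockdown replicate 1 was highest; without it ATP5MC3 had a log2 fold change of 0.07. For ATP5MC1 it was 0.08 without control replicate 1 and 0.25 without control replicate 2. The shares of the 3 genes overlapped between groups. ATP5MC3 gave 55.2%, 49.8% and 50.6% of the subunit c counts in knockdown replicates 1 to 3, against 54.9%, 49.9% and 50.1% in control replicates 1 to 3. ATP5MC1 gave 14.8%, 17.2% and 17.1% in knockdown libraries, against 15.8%, 17.7% and 17.6% in controls.

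Among the small membrane subunits that shape the ATP synthase dimer, ATP5ME (ENSG00000169020, subunit e), on chromosome 4 from 672436 to 674338, had the largest fold change of the 40 genes. Its levels were 51.8, 31.9 and 32.1 CPM in knockdown libraries, against 24.2, 26.9 and 23.9 CPM in controls. The groups did not overlap, and knockdown replicate 1 stood far above the rest. The log2 fold change was 0.63 (SE 0.178, edgeR adjusted p = 0.138), a fold of 1.54 with a 95% interval of 1.18 to 2.03, and without knockdown replicate 1 it was 0.36 (edgeR adjusted p = 0.405). Exons of MYL5 on the opposite strand cover 61.6% of the ATP5ME exons, which makes its count uncertain without a stated strand setting. MYL5 itself averaged 10.0 CPM in knockdown and 11.0 CPM in control libraries. ATP5MF (subunit f), on chromosome 7 from 99448475 to 99466331, had 356, 270 and 291 CPM in knockdown libraries, against 223, 298 and 245 CPM in controls, with overlap (log2 0.26, edgeR adjusted p = 0.387). Its log2 fold change was 0.14 without knockdown replicate 1 and 0.17 without control replicate 1. It was the most abundant ATP synthase gene per kilobase of coding sequence, at 1084 CPM in knockdown and 906 CPM in control libraries. ATP5MG (subunit g) had a log2 fold change of 0.26.

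Fold changes were higher for genes with short coding sequences. Of the 40 genes, 29 belonged to the shortest 10% of tested protein-coding genes by coding sequence (525 coding bases or fewer). All 29 had a fold change above 0, with a median log2 of 0.27, all 15 genes under an unadjusted p of 0.05 were among them, and knockdown replicate 1 was highest in all 29. The 11 longer genes had a median log2 of 0.09, with 7 above 0 and 0 under an unadjusted p of 0.05. Across the 40 genes, Spearman's rho between fold change and coding length was -0.738. With transcript length it was -0.378, and with GC content it was -0.028. These points come from the same 6 libraries and are not independent. At an unadjusted p under 0.05, 51.7% of the 29 were higher. Of the other 1346 tested protein-coding genes in that shortest 10%, 68.2% were above 0, with a median of 0.12. Knockdown replicate 1 was highest in 618 of the 1346, and 21.0% of the 1346 were higher at an unadjusted p under 0.05. The difference from the 29 was not tested. Over all 13690 tested protein-coding genes rho with coding length was -0.160.

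**Figure D3:**
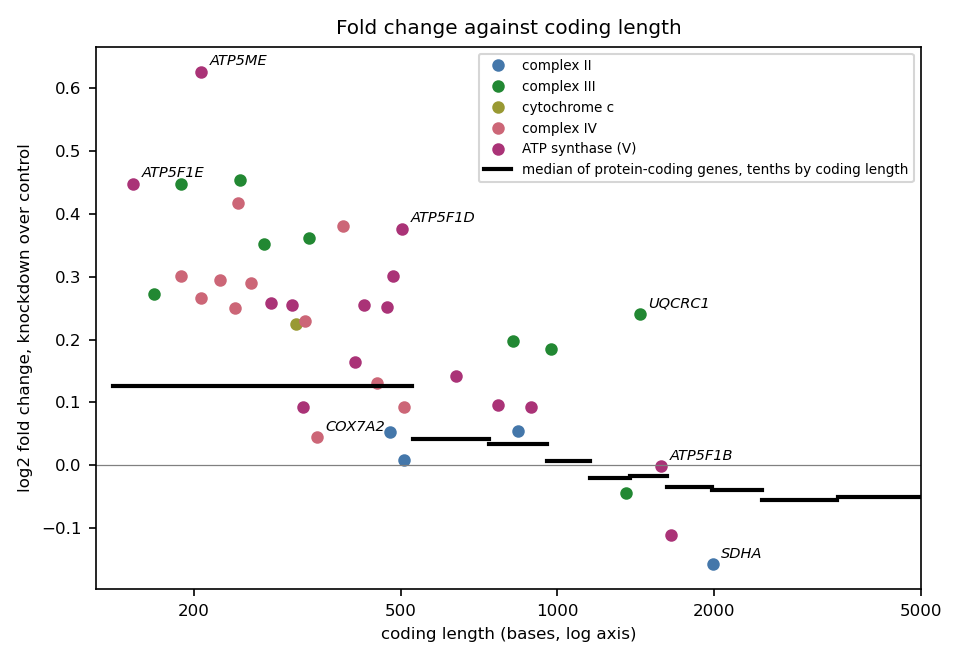
Log2 fold change, knockdown over control, against coding length in bases (log axis) for the 40 genes, coloured by complex; black bars are medians of all tested protein-coding genes in bins of 10% by coding length. The shortest bin, which includes 29 genes of the set, has a median of 0.13, and those 29 are all above 0.

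The libraries differed in this respect, and by coding length knockdown replicate 1 stood apart. The median deviation of the 29 short genes from their mean over the 6 libraries (log2) was 0.37, -0.03 and 0.04 in knockdown replicates 1 to 3, against -0.17, -0.06 and -0.14 in control replicates 1 to 3. For the 11 longer genes it was 0.09, 0.02 and 0.01 in knockdown replicates, against -0.02, -0.01 and -0.01 in controls. In both sets every knockdown median was above every control median, and for the short genes knockdown replicates 2 and 3 lay nearer to the controls than to knockdown replicate 1. Over protein-coding genes, the deviation in knockdown replicate 1 had a rho of -0.285 with coding length. In the other 5 libraries rho lay between 0.0093 and 0.146. With transcript length, rho was -0.271, -0.090 and -0.050 in knockdown replicates 1 to 3, against 0.234, -0.081 and 0.228 in control replicates 1 to 3. The 40 genes took 0.924%, 0.759% and 0.788% of all counts in knockdown replicates 1 to 3, against 0.731%, 0.740% and 0.722% in controls. How far this relation accounts for the differences between groups was not tested; the values without that library are given above, and those after a correction for length follow.

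**Figure D4:**
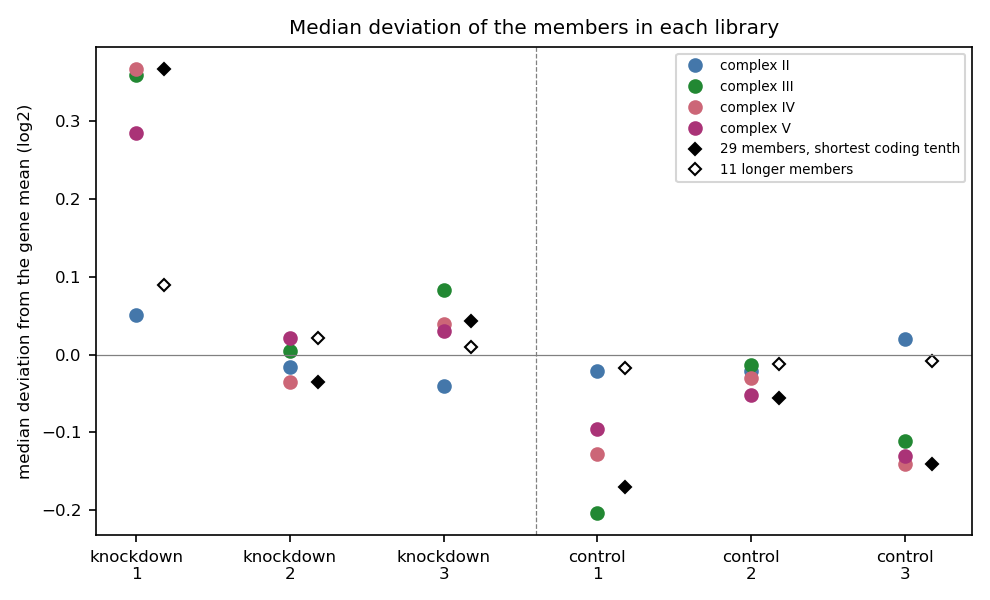
Median log2 deviation from the gene mean in each library, knockdown replicates left and controls right, for the genes of each complex (circles), the 29 genes of the shortest coding bin (filled diamonds) and the 11 longer ones (open diamonds). Knockdown replicate 1 stands apart at 0.37 for the short genes and 0.09 for the longer ones.

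When each library was corrected for coding length and GC content, the median over the 40 genes was 0.07, against -0.03 over all tested genes, with 32 genes above 0 (44.5% of all tested genes were), and 4 were higher at an unadjusted p under 0.05 (8.18% of all). With transcript length in place of coding length the median was 0.02, against -0.05 over all tested genes, and 21 genes were above 0 (42.1% of all tested genes were). In that fit, at an unadjusted p under 0.05, 7 genes were higher and 4 lower, against 7.30% and 13.9% of all tested genes. The 4 lower ones were SDHA, COX4I1, COX7A2 and COX7B. The number called was 0, against 1.38% of all tested genes called higher and 2.39% lower. Complex III with CYCS kept a median of 0.16 under the coding-length correction and 0.18 under the transcript-length correction, while complex IV had 0.06 and -0.02, complex V 0.08 and -0.03, and complex II -0.08 and -0.10.

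**Figure D5:**
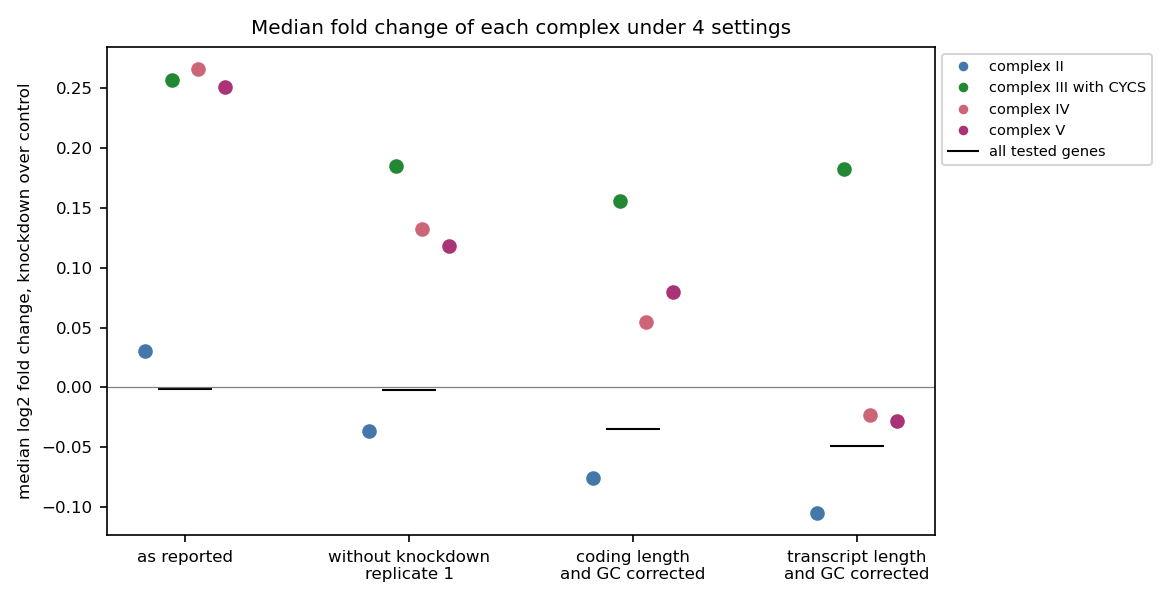
Median log2 fold change, knockdown over control, of each complex (points) and of all tested genes (bars) as reported, without knockdown replicate 1, and after correcting each library for length and GC content. Complex III with CYCS stays above 0.15 in all 4. Under the transcript-length correction complexes IV and V lie below 0 and above the bar of all tested genes, which is at -0.05.

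Of 14 further subunits and isoforms matched in the table, 7 were tested, edgeR called 0 and DESeq2 called 1 (COX7A2L), and 3 were higher at an unadjusted p under 0.05. Over all tested genes, edgeR called 0.451% higher, DESeq2 called 2.75% higher, and 8.15% were higher at an unadjusted p under 0.05. COX7A2L, a factor in joining complexes III and IV, had the smallest p, with 154, 120 and 126 CPM in knockdown libraries, against 98.8, 107 and 98.1 CPM in controls and no overlap (log2 0.39, edgeR adjusted p = 0.139). The ATP synthase subunits ATP5MK and ATP5MJ each stood 0.41 higher on the log2 scale (edgeR adjusted p = 0.198 for ATP5MK and 0.265 for ATP5MJ). The tissue isoforms COX4I2, COX6B2 and COX7A1 and the retrogene ATP5MGL had fewer than 10 counts in every library, and COX6A2, COX7B2 and COX8C had none.

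Of 41 assembly factors, edgeR called 1 higher and 0 lower and DESeq2 4 higher and 0 lower, and an unadjusted p under 0.05 was reached by 11 on the higher side and 0 on the lower; the median log2 was 0.13, with 34 above 0. Over all tested genes, edgeR called 0.451% higher and 0.203% lower, DESeq2 2.75% and 2.17%, and an unadjusted p under 0.05 was reached by 8.15% and 7.43%, with 49.8% above 0. The gene called by edgeR was SCO2 (ENSG00000284194), a copper chaperone for complex IV on chromosome 22 from 50523568 to 50526439. It had 22.6, 19.7 and 19.9 CPM in knockdown libraries, against 11.6, 13.1 and 9.87 CPM in controls, with a wide gap between the groups. SCO2 rose by 0.84 on the log2 scale (SE 0.144, edgeR adjusted p = 0.0290), but its adjusted p was between 0.0610 and 0.159 when any library other than control replicate 2 was left out (0.151, with a log2 fold change of 0.78, without knockdown replicate 1). Its exons overlap those of TYMP on the same strand over 28.3% of their length and an antisense gene over 41.7%. They overlap those of another SCO2 entry of the annotation over 71.7%, so the count of SCO2 is uncertain. The DESeq2 calls were SCO2, COX20, COA6 and COA7, all factors of complex IV. Exons of HNRNPU on the opposite strand cover 72% of the COX20 exons, so the count of COX20 is uncertain too. In the other assembly lists, the smallest p belonged to SDHAF2 for complex II (log2 0.23, edgeR adjusted p = 0.356), UQCC3 for complex III (log2 0.68, edgeR adjusted p = 0.211) and FMC1 for ATP synthase (log2 0.30, edgeR adjusted p = 0.343). Without knockdown replicate 1 the log2 fold change was 0.42 for UQCC3 and 0.16 for FMC1.

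Of 12 nuclear regulators of respiratory genes, 0 were called by edgeR or DESeq2. Among all tested genes edgeR called 0.451% higher and 0.203% lower, and DESeq2 2.75% and 2.17%. At an unadjusted p under 0.05, 2 of the 12 were higher and 3 lower, against 8.15% and 7.43% of all tested genes. The median log2 of the 12 was 0.0017. YY1 had the smallest p, with 53.2, 56.2 and 53.8 CPM in knockdown libraries, against 71.2, 62.9 and 69.6 CPM in controls; all knockdown libraries were below all controls (log2 -0.32, SE 0.0986, edgeR adjusted p = 0.162). Without control replicate 2 its log2 fold change was -0.37 and it passed the threshold (edgeR adjusted p = 0.0418), as it did under the coding length and GC correction (log2 -0.30, edgeR adjusted p = 0.0365); over all alternatives the adjusted p lay between 0.0365 and 0.478. NRF1 had 14.6, 15.9 and 15.0 CPM in knockdown libraries, against 15.2, 17.2 and 13.0 CPM in controls. GABPA, the DNA-binding subunit of GABP, averaged 22.6 ± 1.77 CPM in knockdown and 17.5 ± 3.26 CPM in control libraries (SD, n = 3 each; log2 0.37, edgeR adjusted p = 0.268). Its exons overlap those of ATP5PF on the opposite strand. TFAM, which packages mitochondrial DNA and acts in its transcription, averaged 30.7 ± 0.536 CPM in knockdown and 36.9 ± 3.27 CPM in control libraries (SD, n = 3 each). The log2 fold change of TFAM was -0.27 (edgeR adjusted p = 0.276). Besides GABPA, the gene higher at the unadjusted p was PPARGC1A, with the largest fold change of the list and overlapping groups (log2 0.53, edgeR adjusted p = 0.292). Besides YY1 and TFAM, the lower gene was SP1, with no overlap (log2 -0.27, edgeR adjusted p = 0.216).

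The tested partner genes encoded in mitochondrial DNA numbered 6 (MT-CYB, MT-CO1, MT-CO2, MT-CO3, MT-ATP6 and MT-ATP8). Of these, 0 were called by edgeR or DESeq2, 0 were under an unadjusted p of 0.05, and all overlapped between groups. Such overlap held for 13887 of all 17723 tested genes. Across those genes edgeR called 0.655% in either direction, and DESeq2 called 2.75% higher and 2.17% lower. An unadjusted p under 0.05 was reached by 8.15% of them on the higher side and 7.43% on the lower. The median log2 of the 6 was 0.09. MT-CYB, the cytochrome b of complex III, had the smallest p, with 2830, 3827 and 3020 CPM in knockdown libraries, against 2556, 3205 and 3081 CPM in controls (log2 0.13, edgeR adjusted p = 0.695). Knockdown replicate 2, not replicate 1, was the highest there.

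Neighbouring genes gave a further comparison, since 10 of the 40 genes (25.0%) share a start region with a gene on the other strand within 1000 bases, against 12.9% of 19874 protein-coding genes. TIMM8B, which encodes a small import chaperone and overlaps the start of SDHD, had 119, 73.8 and 85.6 CPM in knockdown libraries, against 56.7, 64.7 and 51.2 CPM in controls (log2 0.69, edgeR adjusted p = 0.0922), beside 0.05 for SDHD. LRRC41 next to UQCRH had a log2 fold change of -0.06 beside 0.35 for UQCRH, and HAUS1 next to ATP5F1A had 0.23 beside -0.11. Coding lengths were 294 bases for TIMM8B and 477 for SDHD, and 2436 for LRRC41 and 273 for UQCRH. They were 834 bases for HAUS1 and 1659 for ATP5F1A. In each of these 3 pairs, which were chosen after their values were seen, the gene with the shorter coding sequence had the higher fold change. Of the 10 pairs, UQCRQ with GDF9 and COX4I1 with EMC8 went the other way. GDF9 (1362 coding bases, under 1 CPM in every library) had a log2 fold change of 1.41, beside 0.45 for UQCRQ (246 coding bases). EMC8 (630 coding bases) had 0.11, beside 0.09 for COX4I1 (507 coding bases). The part of length was not tested.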

How the data were processed

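The deposited table holds raw whole counts for each gene. Tools named in the submitters' processing notes include HISAT2 2.0.4, cutadapt 1.9, edgeR, DESeq2 and StringTie 1.3.4d, with build GRCh38. The sources used here do not give which of these produced the counts, under which annotation and strand setting, or how reads matching several places were treated, so the counts may be rounded estimates from coverage. Symbols were matched for 60588 of 60612 identifiers, and coordinates and coding lengths come from GENCODE release 29 (GRCh38).

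Counts were tested in R 4.3.3 with edgeR 4.0.16 (quasi-likelihood F test, two-sided, TMM normalisation, group as the only term, filterByExpr with a minimum count of 10, Benjamini-Hochberg adjustment over 17723 genes); a gene is called at an adjusted p under 0.05. Levels are mean ± SD of TMM-normalised CPM over 3 libraries, and fold changes are knockdown over control. A count of 3 corresponds to between 0.0463 and 0.0514 CPM, a floor that covers counting error only. Alternatives included DESeq2 1.42.0, limma 3.58.1 (voom), other scalings and filters, leaving out each library, and per-library loess corrections (span 0.3) for GC content with transcript length or, chosen after seeing the data, coding length.

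The 40 genes, the other lists, the motifs and the rule for naming genes were chosen with earlier results of these data known. Values by library are given for called genes, up to 3 genes per complex and direction with the smallest p, the highest and lowest per coding length in each complex (in place of transcript length, which varies with annotated isoforms), CYCS, the subunit c genes and TEAD3; other genes are named to account for the rest. CYCT had no match. Promoter windows were read from the RefSeq table (GRCh38.p14). ATP5MF, COX6C, ATP5MC3, ATP5F1D, SDHC, NDUFA4, ATP5F1B, CYC1 and UQCRB had no entry.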

Additional observations from a re-analysis of the deposited data

How the results depend on the processing

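Of 24 genes of the set named by rule, 16 kept the sign of their fold change under all 21 alternatives. The alternatives with robust dispersions and with a 0.01 threshold on the adjusted p left the fold changes as they were. Neither could therefore change a sign, and the stricter threshold could not add calls. Counts of called genes were 0 under every alternative except DESeq2, which called 4 higher, against 2.75% of all tested genes. Where 0 were called, between 0.0815% and 1.72% of all genes in the fit were called higher and between 0.0169% and 3.19% lower. Scaling, filter, limma-voom, robust dispersions and added pseudogene counts left the median of the 40 genes within the spread between libraries; with single libraries left out it lay between 0.13 and 0.30. The number higher at an unadjusted p under 0.05 lay between 2 and 20 when a library was left out. It was 2 without knockdown replicate 1, against 4.97% of all genes in that fit, and 20 without knockdown replicate 2, against 7.77%. Under the transcript length and GC correction 7 genes were higher and 4 lower, against 7.30% and 13.9% of all tested genes. Under the coding length and GC correction 4 were higher, against 8.18%. With the transcript length and GC correction and the replicate block together, 2 were higher and 1 lower, against 6.53% and 12.2%. The median of the 40 genes was 0.017, 0.066 and 0.014 under these 3 settings in that order. The cause was not tested.

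Under the transcript length and GC correction, the sign reversed for SDHB (-0.090), SDHD (-0.12), SDHC (-0.0099), COX7C (-0.059), ATP5MF (-0.028), ATP5PO (-0.055), ATP5MC1 (-0.11) and MT-CYB (-0.032). The median over all tested genes was -0.049 in that fit, and SDHC, ATP5MF and MT-CYB lay above it. That median was -0.047 with the replicate block added and -0.035 under the coding length and GC correction. With the replicate block added, the values were -0.090 for SDHB, -0.12 for SDHD, -0.0057 for SDHC, -0.063 for COX7C, -0.024 for ATP5MF, -0.055 for ATP5PO, -0.11 for ATP5MC1 and -0.042 for MT-CYB. Under the coding length and GC correction the sign reversed for SDHD (-0.061), SDHC (-0.091) and ATP5F1B (0.031). SDHC, near 0, was also -0.0015 under library size alone, ATP5F1B was 0.0073 under upper-quartile scaling and 0.0036 under the stricter filter. When a library was left out, SDHC lay between -0.033 and 0.041, SDHD between -0.040 and 0.12, ATP5F1B between -0.044 and 0.052 and MT-CYB between -0.010 and 0.22.

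With the replicate number of the labels as a block, 0 of the 40 genes were called. At an unadjusted p under 0.05, 12 were higher, against 15 without the block. The share of all tested genes higher at that p was 8.03% with the block and 8.15% without it. Same-numbered libraries did not deviate together (correlations of 0.026, -0.054 and -0.019), and not every library correlated best with its own number, so the numbers were not taken to pair the samples. Over all genes, the block gave 47 called higher and 16 lower, against 80 and 36 without it, and DESeq2 gave 488 higher and 384 lower. The biological coefficient of variation was 0.227, and the precision rests on 3 libraries a group.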
